A study of Mus musculus with 12 samples.

Results

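Lysosomal hydrolases are the enzymes that take apart proteins, sugar chains and bacterial walls inside the acidic lysosome and, when released, around the cell. Of the 56980 genes in the deposited expression table, 10 genes of this kind, each matched by its symbol, were followed through lung tissue: the cathepsins Ctsb, Ctsc, Ctsd, Ctsh, Ctsk, Ctsl, Ctss and Ctsz, the mannosidase Man2b2 and the lysozyme gene Lyz2. All 10 passed the filter on low counts. The tissue came from male C57BL/6 mice aged 6 to 8 weeks and was profiled by RNA sequencing in 12 libraries, 4 in each of 3 groups, and no altered allele is named in any group. The HBG group had a single intratracheal dose of bleomycin (5 mg/kg), a drug used to scar the lung, and Huashibaidu granules by mouth (7 g/kg), a traditional Chinese herbal preparation. The Model group had the same bleomycin dose and distilled water, and the Control group had distilled water and no bleomycin. Whether Control lungs received an instillation is not stated. The sources differ on the granules, which the series text starts 1 week before bleomycin and continues to day 28, and which the sample labels start on day 7 and continue for 14 days. Nothing in the labels states that each library is a different animal; p-values therefore measure the spread between libraries, which may be technical.

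Cathepsins are made as inactive precursors, carried to lysosomes mostly by the mannose 6-phosphate route, and activated there by removal of a propeptide. Macrophages carry large amounts of them, and in lung they digest engulfed debris, trim antigens for presentation and, outside the cell, can degrade elastin and collagen. Lysozyme is a secreted as well as a lysosomal enzyme, made in lung by macrophages and by type II alveolar epithelial cells. In the deposited protein domain annotation, 7 of the 10 genes (Ctsb, Ctsc, Ctsh, Ctsk, Ctsl, Ctss and Ctsz) carry the papain-type cysteine protease domain, and 4 of those (Ctsh, Ctsk, Ctsl and Ctss) also carry the I29 inhibitor propeptide. Ctsd carries the aspartyl protease domain, Man2b2 the glycoside hydrolase family 38 domain and Lyz2 the C-type lysozyme domain. The KEGG lysosome map in that annotation holds 8 of them, all the cathepsins, and neither Man2b2 nor Lyz2.

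Total estimated counts per library were 17979908 to 20752060 in HBG, 19230871 to 22622450 in Model and 18864850 to 27150874 in Control lungs. The 10 genes together held between 0.591% of a library's counts (Model 4) and 1.44% (Model 1). Sftpc, a surfactant gene that defines type II cells of the lung, was abundant in all libraries, at 7724 to 18907 CPM (counts scaled to the library's total, adjusted by TMM factors). Summed cardiac muscle markers were also present, at 345 to 3498 CPM in HBG lungs, 358 to 3336 CPM in Model and 873 to 5855 CPM in Control lungs. Cdkn1a, a stress-induced gene, stood apart at 73.4 CPM in HBG 3, 174 CPM in Model 2 and 55.3 CPM in Control 4, against 476 to 751 CPM in the other libraries.

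The 250 bases before the annotated start of the genes on which the comparisons turn are shown first, from RefSeq on GRCm38.p6, 5′ to 3′ on the gene's strand. Promoter windows were matched for 8 of the 10 genes, and Ctsb and Ctsh are only named. The motifs searched on both strands were CACGTG, the core read by the MiT/TFE lysosomal regulators and by other E-box factors, TCACGTGA, which extends and overlaps it, the same 8 letters with G before and C after, GAGGAAGT, a PU.1-type ETS sequence, and GAAA followed after any 2 bases by GAAA, an interferon-response type sequence. Capitals in the Ctsd sequence mark CACGTG, and those in the Ctss sequence mark the paired GAAA. Man2b2 is shown because it alone passed the test, Ctss because it had the largest difference among the 10, and Ctsd because it holds CACGTG in both capitalised places.
Man2b2, chr5:36830650-36830899, minus strand: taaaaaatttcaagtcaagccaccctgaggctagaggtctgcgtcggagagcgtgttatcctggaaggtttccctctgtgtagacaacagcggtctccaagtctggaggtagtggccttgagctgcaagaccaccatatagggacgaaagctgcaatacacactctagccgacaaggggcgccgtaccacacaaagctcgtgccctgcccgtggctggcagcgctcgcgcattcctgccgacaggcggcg
Ctss, chr3:95526536-95526785, plus strand: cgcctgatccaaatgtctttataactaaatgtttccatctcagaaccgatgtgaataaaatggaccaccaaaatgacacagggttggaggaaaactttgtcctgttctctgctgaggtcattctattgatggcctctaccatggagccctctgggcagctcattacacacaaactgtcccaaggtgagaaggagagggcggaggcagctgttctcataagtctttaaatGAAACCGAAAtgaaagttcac
Ctsd, chr7:142387828-142388077, minus strand: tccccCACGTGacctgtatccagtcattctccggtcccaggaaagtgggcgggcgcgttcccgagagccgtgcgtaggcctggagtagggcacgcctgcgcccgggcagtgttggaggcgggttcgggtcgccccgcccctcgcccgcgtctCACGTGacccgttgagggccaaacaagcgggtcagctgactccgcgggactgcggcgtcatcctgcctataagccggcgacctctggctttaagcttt

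CACGTG lay 245 and 98 bases before the start of Ctsd and 236 bases before that of Ctsl, and 6.02% of 32851 mouse windows of this length hold it. The second of the Ctsd matches lies within TCACGTGA, which 0.785% of windows hold. The paired GAAA began 21 bases before the start of Ctss (2.98% of windows), and GAGGAAGT began 151 bases before that of Ctsc (2.44% of windows). TCACGTGA with G before and C after was found in none of the 8 windows, against 0.24% of all windows. Man2b2 held none of these motifs in its window. A match is a description of letters and says nothing of binding. In the same RefSeq annotation no protein-coding gene lies between Ctsk and Ctss, or between Lyz2 and Lyz1.

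Levels of different genes were compared in TPM, which scale counts to the library and also divide by the deposited gene length. Lyz2 was by far the most abundant at a mean of 8183 TPM over the 12 libraries, followed by Ctsd at 612 TPM. Ctsh (394 TPM), Ctss (312 TPM), Ctsb (237 TPM), Ctsc (208 TPM) and Ctsz (190 TPM) formed a middle range. Ctsl (64.0 TPM), Ctsk (61.1 TPM) and Man2b2 (31.6 TPM) were the lowest. The ranges of neighbours in the middle overlapped, and with the longest GENCODE M21 transcript as length Ctss (356), Ctsb (270) and Ctsh (265) changed places, at those values in TPM. Ctsz (216 TPM) and Ctsc (184 TPM) also changed places by that length. By group, Ctsd averaged 626 ± 210.2 TPM in HBG, 881 ± 404 TPM in Model and 329 ± 41.0 TPM in Control lungs (SD, n = 4 each). Ctss averaged 340.4 ± 174 TPM in HBG, 479 ± 272 TPM in Model and 115 ± 24.7 TPM in Control lungs (SD, n = 4 each), so the Model mean of Ctss stood near that of Ctsh (504 ± 194 TPM) while the Control mean stood below it (269 ± 28.5 TPM).

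In Model against Control lungs 1 of the 10 genes passed the test, Man2b2, and it was higher in Model. All 10 had a higher fitted level in Model, with a median log2 fold change of 0.63 (1.55-fold) and a range of 0.31 to 1.92, against a median of 0.01 over all 17827 genes tested. The test was edgeR's quasi-likelihood test with Benjamini-Hochberg adjustment over all genes tested, at a threshold of 0.05. It called 0.348% of all genes, and 0.0505% as higher in Model. At an unadjusted p under 0.05 stood 8 of the 10 genes, all but Ctsc and Lyz2, against 11.7% of all genes. A positive log2 fold change, with no test, was had by 51.5% of all genes. In bulk tissue such as this, a change in the number of cells of a type and a change in RNA per cell cannot be told apart.

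Man2b2 encodes an alpha-mannosidase of the lysosome that acts on the sugar chains of glycoproteins. It had 68.0, 55.0, 68.3 and 51.2 CPM in the HBG libraries, 72.8, 78.3, 63.6 and 61.9 CPM in the Model libraries and 47.5, 44.1, 44.9 and 41.4 CPM in the Control libraries. Every Model and every HBG library lay above every Control library, while HBG and Model overlapped. Man2b2 rose in Model, with a log2 fold change of 0.64 ± 0.11 (SE) and an adjusted p of 0.0416 in edgeR's quasi-likelihood test. In HBG against Control its log2 fold change was 0.45 and the adjusted p was 0.233 in the same test. The Model call was lost without any 1 of 8 of the 12 libraries (Model 1, 2 or 3, HBG 2, or any Control library), with log2 fold changes of 0.57 to 0.69 and adjusted p of 0.0310 to 0.149 over all 12. It was also lost without a filter on low counts (adjusted p 0.0611), with a correction for GC content and length (0.0628) and without Control 4, Model 2 and HBG 3 together (0.176).

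Ctss, a cysteine protease of antigen-presenting cells that trims the invariant chain and can cut elastin, had the largest difference of the 10. It had 337, 177, 323 and 115 CPM in the HBG libraries, 615, 333, 398 and 90.9 CPM in the Model libraries and 109, 67.9, 99.5 and 103 CPM in the Control libraries. Model 1 to 3 lay far above every Control library and Model 4 lay within the Control range, while all 4 HBG libraries were above it. The log2 fold change of Model against Control was 1.92 ± 0.49 (SE) with an adjusted p of 0.158. Its Model mean was 359 ± 216 CPM, or 274 CPM without Model 1 and 449 CPM without Model 4. The log2 fold change was 1.53 without Model 1 (adjusted p 0.409) and 2.24 without Model 4 (adjusted p 0.0410).

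Ctsd, the main aspartyl protease of lysosomes, had 926, 545, 786 and 522 CPM in HBG libraries, 1715, 817, 1146 and 485 CPM in Model libraries and 429, 477, 478 and 327 CPM in Control libraries. No Model or HBG library overlapped the Control range, although Model 4 was above it by a small margin. The log2 fold change of Model against Control was 1.28 ± 0.33 (SE) with an adjusted p of 0.163, with 0.93 (adjusted p 0.402) without Model 1 and 1.52 (adjusted p 0.0494) without Model 4. Ctsk, the collagen-degrading cysteine protease best known from osteoclasts, had 76.5, 35.2, 37.5 and 31.6 CPM in HBG libraries, 159, 28.2, 103 and 30.7 CPM in Model libraries and 29.6, 32.5, 33.8 and 23.4 CPM in Control libraries. Only Model 1, Model 3 and HBG 1 stood clearly above the rest, and Model 2 and Model 4 lay within the Control range. Its log2 fold change of Model against Control was 1.43 ± 0.51 (SE) with an adjusted p of 0.312, and its Model mean of 80.4 ± 63.1 CPM was 54.0 CPM without Model 1.

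Ctsh, an aminopeptidase-type cathepsin that also processes surfactant protein precursors, had 451, 314, 317 and 315 CPM in HBG libraries, 692, 323, 534 and 263 CPM in Model libraries and 299, 241, 271 and 248 CPM in Control libraries. HBG lay just above the Control range in 3 libraries and well above it in HBG 1, and Model 4 fell inside it. Ctsb, a cysteine protease with both endopeptidase and carboxydipeptidase activity, had 811, 568, 536 and 531 CPM in HBG libraries, 1117, 562, 862 and 519 CPM in Model libraries and 546, 528, 550.2 and 417 CPM in Control libraries. The high libraries were again Model 1, Model 3 and HBG 1. The log2 fold change of Model against Control was 0.77 ± 0.26 (adjusted p 0.287) for Ctsh and 0.58 ± 0.24 (adjusted p 0.372) for Ctsb.

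Ctsc, which activates serine proteases of neutrophil, mast cell and T cell granules, averaged 291 ± 78.3 CPM in HBG, 340.5 ± 131 CPM in Model and 231 ± 29.2 CPM in Control lungs (SD, n = 4 each). Its lowest library of all 12 was Model 4, at 177 CPM. Ctsz, a carboxypeptidase-type cathepsin, averaged 145 ± 25.0 CPM in HBG, 189 ± 62.5 CPM in Model and 123 ± 16.7 CPM in Control lungs (SD, n = 4 each). Ctsl, a broadly expressed endopeptidase, averaged 215 ± 24.1 CPM in HBG, 256 ± 60.9 CPM in Model and 189 ± 8.35 CPM in Control lungs (SD, n = 4 each). The log2 fold changes of Model against Control for Ctsc, Ctsz and Ctsl were 0.56, 0.63 and 0.44, with adjusted p of 0.453, 0.293 and 0.293.

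**Figure D1:**
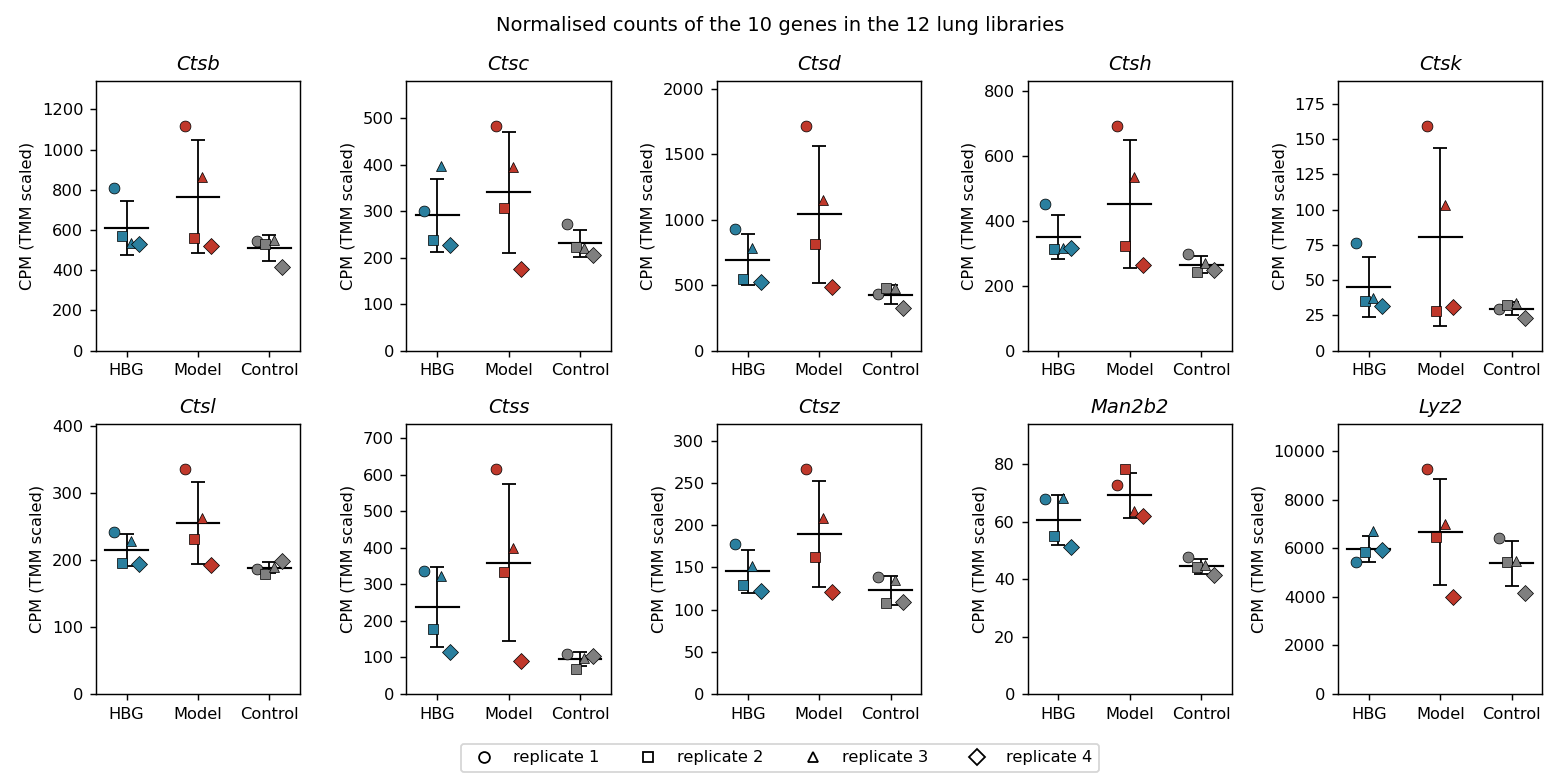
CPM (vertical axis, scaled by TMM factors, each panel starting at 0) of each of the 10 genes in the 4 HBG, 4 Model and 4 Control libraries, with a point per library, shaped by replicate number, a horizontal line at the group mean and bars of 1 SD. Model 1 is the highest library for 9 genes, Man2b2 being the exception. The Control libraries lie closer together than the Model libraries for each gene, but farther apart than the HBG libraries for Lyz2.

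Lyz2, the lysozyme of macrophages and other myeloid cells, was abundant and had the smallest log2 fold change of the 10 in Model against Control. It had 5433, 5849, 6709 and 5932 CPM in HBG libraries, 9264, 6467, 6995 and 3978 CPM in Model libraries and 6441, 5444, 5474 and 4178 CPM in Control libraries. Model held both the highest and the lowest library, and 3 of the 4 HBG libraries lay inside the Control range. The log2 fold change of Model against Control was 0.31 ± 0.23 (SE) with an adjusted p of 0.632 in edgeR's quasi-likelihood test. Its copy Lyz1, the Paneth cell lysozyme, averaged 359 ± 65.4 CPM in HBG, 374 ± 119.7 CPM in Model and 369 ± 72.1 CPM in Control lungs (SD, n = 4 each), with a log2 fold change of 0.02 in Model against Control.

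The values of Lyz2 and Lyz1 are uncertain as a pair, because the genes share sequence and their estimated counts were not whole numbers in any of the 12 libraries. The counts of Ctsb and Ctsl were also not whole in the 12 libraries, and those of Ctsd in 11 of them. The annotated transcripts are 1316 bases (Lyz2) and 1263 bases (Lyz1) long, and 1211 of 1262 aligned bases are identical, with a longest identical run of 118 bases. Of the last 100 bases before the start 92 are identical, and of the last 250 bases, compared without gaps, 152 are. The 100 bases are shown, with capitals in Lyz1 for the bases that differ from Lyz2.
Lyz2, chr10:117282273-117282372, minus strand: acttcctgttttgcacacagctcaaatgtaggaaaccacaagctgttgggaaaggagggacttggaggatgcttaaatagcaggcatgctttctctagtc
Lyz1, chr10:117292869-117292968, minus strand: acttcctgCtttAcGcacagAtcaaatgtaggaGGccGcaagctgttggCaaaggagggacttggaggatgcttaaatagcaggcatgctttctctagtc
Lyz1 made up 4.34% to 7.60% of the pair's CPM in every library. Their sum was 5738 to 7013 CPM in HBG, 4213 to 9777 CPM in Model and 4522 to 6907 CPM in Control lungs, so the groups overlapped for the pair as for Lyz2 alone.

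In HBG against Model lungs none of the 10 genes passed the test, and the test called 0% of all genes. All 10 had a lower fitted level in HBG, with a median log2 fold change of -0.35 (0.786-fold), against 0.00 over all genes tested, of which 50.1% had a positive one. The adjusted p was 0.9999 for each of the 10 in edgeR's quasi-likelihood test, and none of them reached an unadjusted p under 0.05, which 433 genes (2.43%) did. DESeq2 called 4 genes and limma-voom 0, none of them among the 10. The largest differences were those of Ctsk (log2 fold change -0.83), Ctss (-0.60) and Ctsd (-0.58), and the smallest were those of Lyz2 (-0.16) and Man2b2 (-0.19). HBG and Model libraries overlapped for each of the 10 genes, against 1.13% of all genes whose libraries did not overlap. Of the single libraries left out, Model 1 moved the values of the 8 cathepsins most, to -0.08 for Ctsb, -0.01 for Ctsc, -0.23 for Ctsd, -0.09 for Ctsh, -0.26 for Ctsk, -0.09 for Ctsl, -0.21 for Ctss and -0.18 for Ctsz, and gave Lyz2 a value of 0.04. Other omissions widened the differences. Without Model 4 the values were -0.44 for Ctsc, -0.82 for Ctsd, -0.56 for Ctsh, -0.36 for Ctsl, -0.92 for Ctss, -0.55 for Ctsz and -0.34 for Lyz2. Without HBG 1 they were -0.49 for Ctsb and -1.21 for Ctsk.

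In HBG against Control lungs none of the 10 passed the test either, and the test called 0.151% of all genes, and 0.0224% as higher in HBG. DESeq2 called 1 of the 10, Man2b2 (adjusted p 0.0367), and limma-voom called 0. All 10 had a higher fitted level in HBG, with a median log2 fold change of 0.37 (1.29-fold), where 51% of all genes had a positive one. Of the 10, 2 genes (Ctss and Man2b2) reached an unadjusted p under 0.05, which 8.25% of all genes did. The log2 fold changes were 1.32 for Ctss (adjusted p 0.516), 0.70 for Ctsd, 0.60 for Ctsk, 0.40 for Ctsh and 0.15 for Lyz2. The 3 comparisons share libraries, since Model and Control each enter more than one, so their values stand side by side and are not separate observations.

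**Figure D2:**
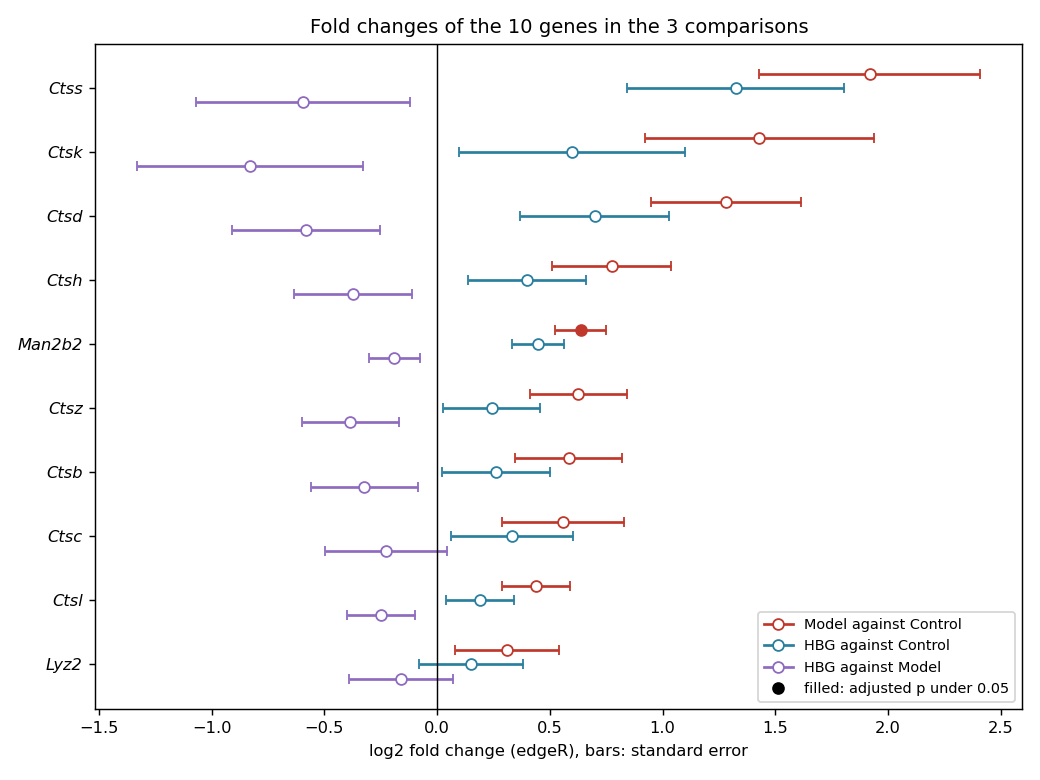
Log2 fold change (horizontal axis) of each of the 10 genes in Model against Control, HBG against Control and HBG against Model, with lines of 1 SE on each side; filled points have an adjusted p under 0.05. Man2b2 in Model against Control (0.64) is the only filled point, and Ctss in that comparison lies farthest from 0 (1.92).

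How far the groups separate depended on a few libraries. Model and Control libraries did not overlap for 2 of the 10 genes, Ctsd and Man2b2, while 8.72% of all genes did not overlap and 4.21% did so with Model higher. Without Model 4 they did not overlap for 9 of the 10, all but Ctsk, against 9.87% of genes with Model higher. HBG and Control libraries did not overlap for 4 of the 10 (Ctsd, Ctsh, Ctss and Man2b2), against 6.33% of all genes and 2.42% with HBG higher. Without HBG 4 that number was 5, with Ctsk added, against 5.16% of genes. Model 4 and HBG 4 were the lowest libraries of their groups for most of the 10 genes. Leaving them out can only raise these counts, so the counts are no test of separation. The shares of all genes leave out the same library, which need not be the lowest for those genes. Model 1 was the highest library for 9 genes, and Model 3 was among the top 3 for 9 genes. Model 4 was the lowest library for Ctsc and Lyz2 and lay within the Control range for 6 genes.

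**Figure D3:**
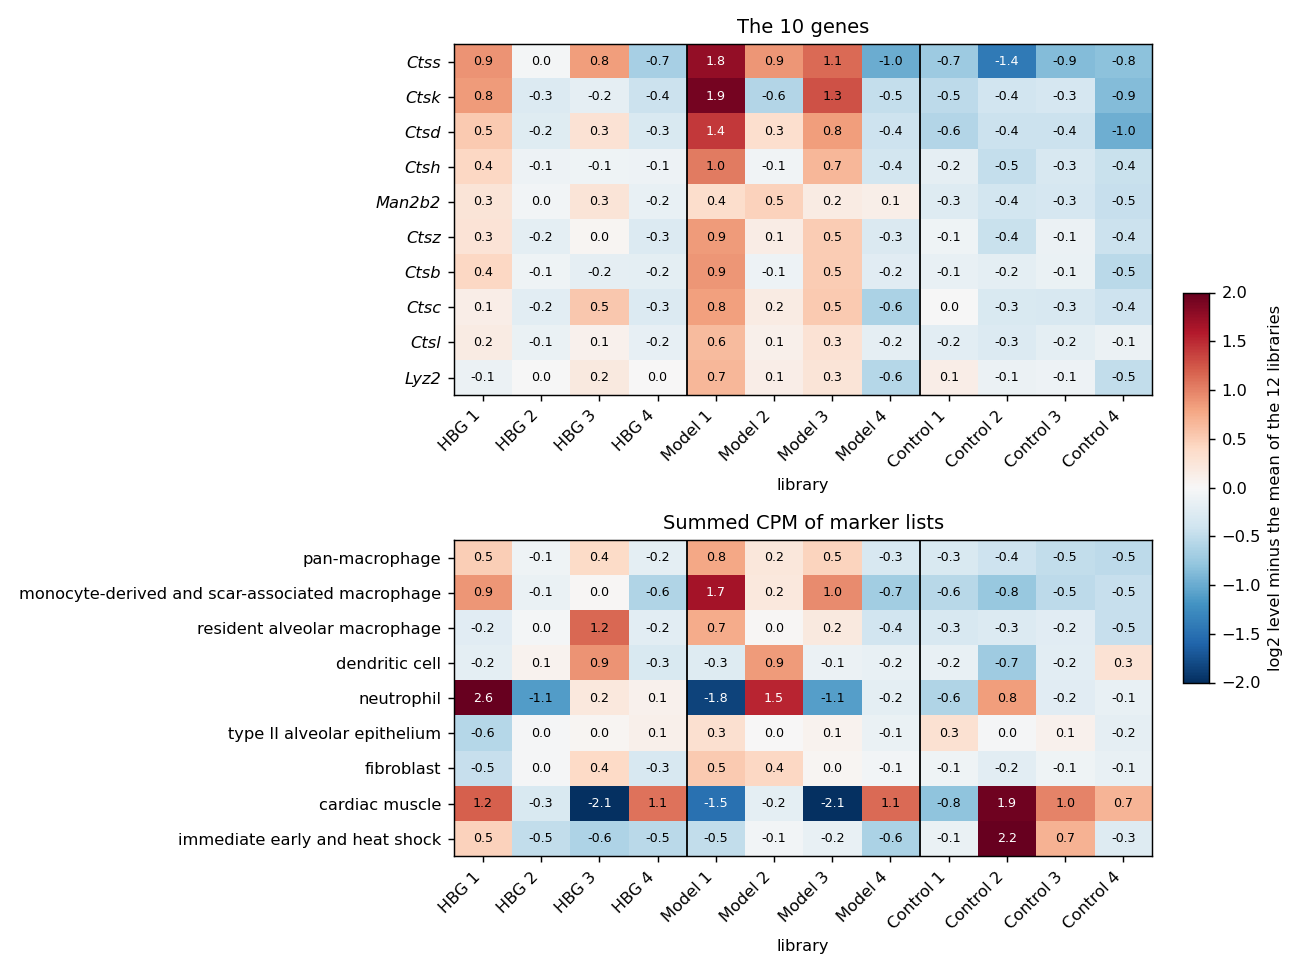
Log2 CPM of each of the 10 genes (upper rows) and log2 summed CPM of each marker list (lower rows), each minus its mean over the 12 libraries, for the HBG, Model and Control libraries (columns); the colours end at 2 in both directions and the cells print the values. Model 1 and Model 3 are above the mean for all 10 genes and both are high for the monocyte-derived macrophage list, and Model 4 is below the mean for all of the 10 but Man2b2.

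The monocyte-derived and pan-macrophage marker sums were highest in the libraries where most of the cathepsins were highest. The other lists did not all follow that order, and some of them matched other genes of the 10. The resident alveolar macrophage sum was highest in HBG 3, Model 1 and Model 3, the 3 highest libraries for Ctsc and Lyz2. For the fibroblast sum they were Model 1, Model 2 and HBG 3, the 3 highest libraries for Man2b2. The fibroblast and type II sums were highest in Model 1 (4503 and 31152 CPM) but lowest in HBG 1 (2292 and 16731 CPM). The summed CPM of 14 markers of monocyte-derived and scar-associated macrophages was 2026, 1005, 1122 and 725 in HBG, 3482, 1280.4, 2130.5 and 677 in Model and 749, 649.6, 764 and 798 in Control libraries. Model 1, Model 3 and HBG 1 were the 3 highest libraries here and for every cathepsin but Ctsc, although for Ctss HBG 1 (337 CPM) was close to Model 2 (333 CPM). Model 4 was within the Control range of the marker sum. The 8 pan-macrophage markers summed to 392 to 632 CPM in HBG, 357 to 763 CPM in Model and 312 to 360.2 CPM in Control lungs. All 14 and all 8 had a positive log2 fold change in Model against Control, with medians of 1.08 and 0.85, and 9 and 5 of them had an unadjusted p under 0.05, none passing the adjusted threshold.

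Trem2, a receptor of lipid-handling macrophages, had 21.4, 7.56, 6.70 and 4.38 CPM in HBG libraries, 34.9, 9.83, 22.9 and 2.94 CPM in Model libraries and 4.04, 2.65, 3.45 and 2.32 CPM in Control libraries. The 12 resident alveolar macrophage markers summed to 548 to 1420.0 CPM in HBG, 490.4 to 1069 CPM in Model and 465 to 545 CPM in Control lungs, and 6 of 12 were higher in Model (median log2 fold change 0.00). The 11 type II cell markers summed to 16731 to 26673 CPM in HBG, 22576 to 31152 CPM in Model and 21966 to 30722 CPM in Control lungs. The 10 neutrophil markers summed to 157 to 2033 CPM in HBG, 94.8 to 979.9 CPM in Model and 225 to 605 CPM in Control lungs. The largest of these sums was that of HBG 1, where 1 of the 10 markers had 0 counts. By the mean log2 CPM of the 10 markers, centred on all libraries, HBG 1 stood at -0.99. Model 2, whose sum was 979.9 CPM, stood at 2.65 by that measure. The 10 fibroblast markers summed to 2292 to 4141 CPM in HBG, 3031 to 4503 CPM in Model and 2723 to 2974 CPM in Control lungs. The sums of Model and Control did not overlap, by a small margin, and 4.21% of single genes did so with Model higher. By the centred mean log2 CPM of the 10 fibroblast markers they did overlap, with Model 4 at -0.0748 and Control libraries at -0.196 to -0.0713. Of these 10, 8 were higher in Model, 4 of them at an unadjusted p under 0.05, with a median log2 fold change of 0.38. The 12 immediate early and heat shock genes summed to 583 to 1230.5 CPM in HBG, 576 to 861 CPM in Model and 754 to 4241 CPM in Control lungs. All 12 were lower in both bleomycin groups, with a median log2 fold change of -1.35 in HBG against Control and -1.21 in Model against Control, and 5 had an unadjusted p under 0.05 in each. The 10 cardiac muscle markers were likewise all lower, with medians of -0.55 in HBG against Control and -1.23 in Model against Control, and none had an unadjusted p under 0.05. No gene of these lists passed the adjusted threshold. None of the defining markers of the macrophage and type II lists was at 0 in any library. The part of cell composition and of these other lists in the differences of the 10 genes was not tested.

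Among themselves the 10 genes differed in how widely they varied and in the order of the libraries. The SD of log2 CPM over the 12 libraries was 1.001 for Ctss, 0.82 for Ctsk and 0.65 for Ctsd, and 0.31 for Lyz2, 0.30 for Man2b2 and 0.25 for Ctsl. The profiles closest to each other were those of Ctsb and Ctsh, with a root mean square difference of centred log2 CPM of 0.13 over the 12 libraries, followed by Ctsh and Ctsz and by Ctsb and Ctsz at 0.14 each. Ctss and Lyz2 were farthest apart, at 0.80. Man2b2 and Lyz2, with nearly the same SD, were 0.31 apart, and Ctsk and Ctss were 0.65 apart. This measure grows with a gene's own spread, and all libraries share the same group structure and depth.

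Outside the 10, 12107 genes averaging at least 5 CPM were ranked by the same measure. Nearest to Ctss were Itgax (0.21), the CD11c integrin of dendritic cells and alveolar macrophages, Csf2rb2 (0.27), a beta chain of the interleukin 3 receptor, Pira2 (0.28), a paired immunoglobulin-like receptor, and Cd68 (0.28), a lysosomal glycoprotein of macrophages, against a median of 1.01 over all candidates. Nearest to Ctsk were Zranb3 (0.25), a DNA repair helicase, Lhfpl2 (0.30), Sfrp1 (0.30), a secreted Wnt antagonist, and the complement gene C1qa (0.30), against a median of 0.84. For Man2b2 they were Nkiras2, Tgfbr2, the type II receptor of TGF-beta, Sh3bp1 and Bak1, an apoptosis effector, at 0.10 to 0.11, against a median of 0.36. For Lyz2 they were Dnase2a, the acid nuclease of lysosomes, Klhdc4, Cndp2 and Mlc1, at 0.13 to 0.14, against a median of 0.36.

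**Figure D4:**
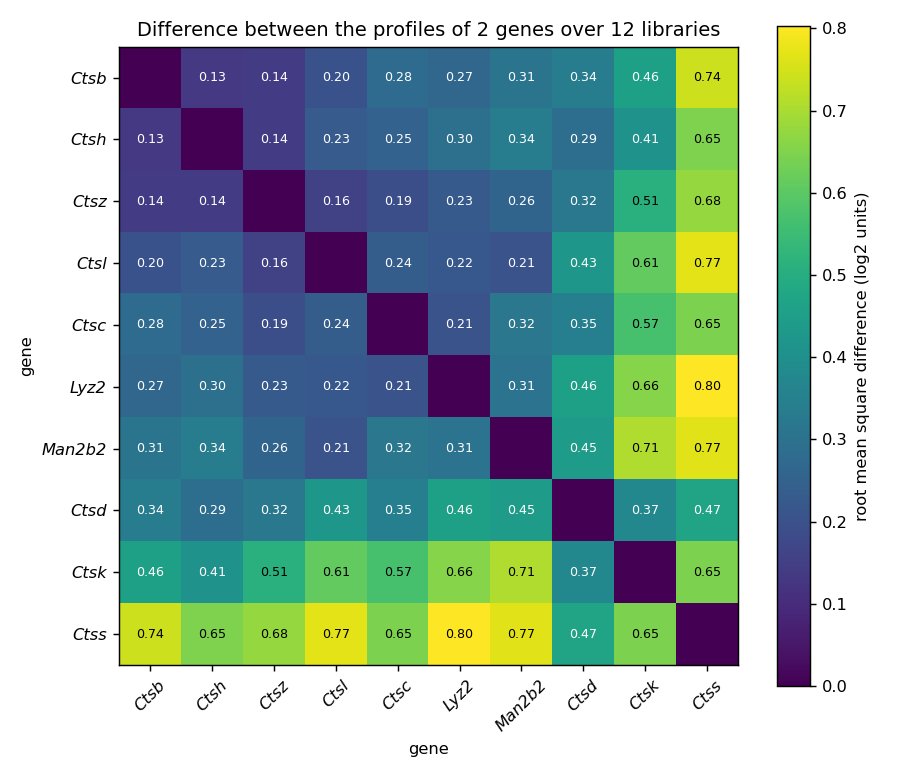
Root mean square difference of centred log2 CPM over the 12 libraries for each pair of the 10 genes, in log2 units; darker cells are closer profiles. Ctsb, Ctsh, Ctsz and Ctsl form the closest block, with values of 0.13 to 0.16 for the closest pairs, and Ctss and Lyz2 are the farthest pair at 0.80.

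The other enzymes of the lysosome were followed in lists by role. Of 18 other glycosidases, none passed the test in any comparison; in Model against Control all 18 had a positive log2 fold change, 7 had an unadjusted p under 0.05, and the median was 0.27. Man2b1, the major lysosomal alpha-mannosidase, had 91.7 ± 21.5 CPM in HBG, 101 ± 26.2 CPM in Model and 63.3 ± 6.55 CPM in Control lungs (SD, n = 4 each; adjusted p of Model against Control 0.229 by edgeR). Gusb, the beta-glucuronidase gene, averaged 51.6 CPM in HBG, 58.2 CPM in Model and 37.8 CPM in Control lungs. In HBG against Model 16 of the 18 had a negative log2 fold change, with a median of -0.11, and in HBG against Control 17 had a positive one, with a median of 0.17.

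Of 23 other proteases, lipases, phosphatases, sulfatases and nucleases, 1 passed the test, Rnaset2a, a lysosomal ribonuclease, and it fell. Rnaset2a had 21.1 ± 7.84 CPM in HBG, 25.3 ± 6.88 CPM in Model and 69.5 ± 7.87 CPM in Control lungs (SD, n = 4 each). The log2 fold change was -1.72 ± 0.26 in HBG against Control (adjusted p 0.0185) and -1.46 ± 0.25 in Model against Control (adjusted p 0.0381), in edgeR's quasi-likelihood test. Its near-identical copy Rnaset2b had 132 CPM in HBG, 131 CPM in Model and 139.8 CPM in Control lungs, and reads can be split between the copies; their sum was 153 ± 16.0 CPM in HBG, 156 ± 16.9 CPM in Model and 209 ± 19.0 CPM in Control lungs. Leaving out single libraries gave adjusted p of 0.0147 to 0.126 for Rnaset2a in Model against Control, and 10 of 12 such fits lost the call; in HBG against Control 5 of 12 lost it.

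In the same list 20 of 23 genes had a positive log2 fold change in Model against Control (median 0.32), and 19 had a negative one in HBG against Model (median -0.14). Psap, the precursor of the saposins that help lipid hydrolases, had 1149.8 ± 293 CPM in HBG, 1519 ± 523 CPM in Model and 863 ± 50.3 CPM in Control lungs (SD, n = 4 each; adjusted p of Model against Control 0.226). It belongs to the list of 13 activators and inhibitors, of which 9 were tested and 7 were higher in Model, with a median log2 fold change of 0.34. Pld3, an exonuclease of the lysosome, had 81.2 CPM in HBG, 111 ± 39.9 CPM in Model and 55.4 ± 6.08 CPM in Control lungs (adjusted p of Model against Control 0.141), and Ids, the iduronate sulfatase gene, had 198 CPM in HBG, 212 ± 16.4 CPM in Model and 172 ± 2.43 CPM in Control lungs (adjusted p 0.166). Also in the activator and inhibitor list were Gm2a, the GM2 activator, at 97.0 CPM in HBG, 105 CPM in Model and 72.7 CPM in Control lungs, and Spint2, a serine protease inhibitor, at 178 CPM in HBG, 167 CPM in Model and 254 CPM in Control lungs.

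Of the 6 other cathepsins, 5 were tested, since Ctsg was filtered out, and none passed the test. Ctsa, the protective protein of the lysosomal sialidase complex, had 144 ± 24.7 CPM in HBG, 166 ± 32.3 CPM in Model and 113 ± 5.01 CPM in Control lungs (SD, n = 4 each), with a log2 fold change of 0.56 in Model against Control (adjusted p 0.178). Ctse and Ctsf were low, with Model means of 1.46 and 18.9 CPM and Control means of 0.52 and 17.6 CPM. Among 11 genes of sorting to the lysosome 10 were higher in Model (median log2 fold change 0.18) and none passed the test. Grn, the progranulin gene whose product travels to lysosomes with sortilin or prosaposin, had 183 CPM in HBG, 212 ± 44.2 CPM in Model and 155 ± 18.2 CPM in Control lungs. Sort1, which encodes sortilin, had 363 CPM in HBG, 389 CPM in Model and 307 CPM in Control lungs, and Gnptab, which makes the mannose 6-phosphate tag, had 74.3, 80.2 and 61.4 CPM in HBG, Model and Control.

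Among 19 genes of the lysosomal membrane and proton pump 17 were higher in Model than in Control (median log2 fold change 0.21), and none passed the test. Atp6v0a1, a subunit of the proton pump, had 109.9 ± 7.27 CPM in HBG, 132 ± 8.76 CPM in Model and 101 ± 9.99 CPM in Control lungs (SD, n = 4 each). Its adjusted p in Model against Control was 0.119. In HBG against Model its libraries did not overlap and the log2 fold change was -0.27, with an unadjusted p of 0.0119 and an adjusted p of 0.9999 in edgeR's quasi-likelihood test. It was 1 of the 19 genes with an unadjusted p under 0.05 there, against 2.43% of all genes, and 1.13% of all genes did not overlap. Atp6v0a1 was named for its small p in Model against Control, a comparison that shares the Model libraries. Atp6v0d2, a pump subunit of osteoclasts and alveolar macrophages, had 33.7 CPM in HBG, 58.3 ± 39.1 CPM in Model and 17.7 ± 3.55 CPM in Control lungs. Laptm5, a lysosomal membrane protein of blood cells, had 207 CPM in HBG, 242 CPM in Model and 127 CPM in Control lungs.

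The TFEB family switches on lysosomal genes through CACGTG-type sites. Together with listed regulators of the family, 9 genes had a median log2 fold change of 0.19 in Model against Control, with 7 higher and none passing the test. Tfeb itself had 21.0 CPM in HBG, 21.7 CPM in Model and 18.3 CPM in Control lungs, with a log2 fold change of 0.24 in Model against Control (adjusted p 0.378 by edgeR). With the correction for GC content and length that value was 0.55, with an adjusted p of 0.0309 past the threshold. Tfec had 4.58, 5.10 and 2.52 CPM, and Tfe3 had 45.2, 51.7 and 46.4 CPM in HBG, Model and Control. The 11 genes of MHC class II processing, which work with Ctss on the invariant chain, were all higher in Model (median log2 fold change 0.56), and in HBG against Model 6 were higher and 5 lower (median 0.10). Cd74, the invariant chain itself, had 1089 ± 570.4 CPM in HBG, 1153 ± 420.5 CPM in Model and 638 ± 221 CPM in Control lungs (SD, n = 4 each), H2-DMb1 had 55.1, 62.9 and 41.6 CPM, and Ifi30, a lysosomal thiol reductase, had 68.0, 69.9 and 55.5 CPM. No gene of this list passed the test.

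Of 9 listed granule proteases, some of which Ctsc activates, 5 were tested, 4 were higher in Model than in Control (median log2 fold change 0.46) and none passed the test. Gzmb, a cytotoxic granule protease, had 8.70 ± 4.39 CPM in HBG, 6.62 ± 7.51 CPM in Model and 4.80 ± 1.58 CPM in Control lungs (SD, n = 4 each). Gzmk averaged 1.11 CPM in HBG, 0.71 CPM in Model and 0.40 CPM in Control lungs, and Cma1, the mast cell chymase, averaged 1.40 CPM in HBG, 1.06 CPM in Model and 0.68 CPM in Control lungs. The signs of the Model differences of these 3 genes turned without Model 2, to a log2 fold change of -0.69 for Gzmb, -0.30 for Gzmk and -1.33 for Cma1.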

How the data were processed

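Polyadenylated RNA was sequenced as stranded paired reads of 150 bases, per the labels' protocols. The authors deposited 1 table of estimated counts per gene (expected counts), with a gene length, annotation columns and group means that were not used for tests. Its header does not name the unit, which was read from the values: 10.0% to 15.1% of a library's values were not whole numbers. Per the submitters' processing notes, tools included FastQC 0.11.9, Trimmomatic 0.39, STAR 2.7.9a, featureCounts 2.0.1 and DESeq2 1.34.0. The sources used here do not give which tool made the table or on which build, and gene coordinates are left out. Groups and replicate numbers came from the sample titles, where HBG libraries carry the abbreviation HSBD.

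Counts were rounded and fitted with edgeR 4.0.16 in R 4.3.3 (TMM, filterByExpr, quasi-likelihood, group as the only factor, all 12 libraries, 17827 genes tested, Benjamini-Hochberg threshold 0.05). CPM use TMM-scaled library sizes, and TPM the deposited length. The SE of a log2 fold change is its size divided by the square root of the quasi-likelihood F. The fit was also run on counts simulated from its own estimates, which cannot show that its model suits these libraries. Alternatives were DESeq2 1.42.0, limma-voom (limma 3.58.1), other scalings and filters, a GC and length correction, a replicate block, pairs of groups alone and left-out libraries. GC content was known for 98.1% of genes tested. Libraries of a group differed by more than sampling noise, so none was merged. Same-numbered libraries of different groups deviated together in 3 of 12 pairs (correlations of -0.36 to 0.48), so numbers were not used as pairs. Rows without a symbol held 0.286% of counts.

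The 10 genes, the lists and the markers were chosen with earlier results of these data known. Named from each list were the 3 genes tested with the smallest unadjusted p in Model against Control and any gene called, and, for Ctss, Man2b2, Ctsk and Lyz2, the 4 genes with the closest profile among those averaging at least 5 CPM. A gene chosen by this rule is not reported here. Centred log2 CPM used a prior count of 2.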

Additional observations from a re-analysis of the deposited data

Results flagged for a closer look

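Ctsb in HBG 1, at 811 CPM, stood apart from the other HBG libraries at 531 to 568 CPM, its gap to the nearest of them being nearly the whole range of the group. Ctsh showed the same in HBG 1, at 451 CPM against 314 to 317 CPM. Ctsb in Control 4, at 417 CPM, lay below the other Control libraries at 528 to 550.2 CPM. These are 3 of 30 groups examined (10 genes in 3 groups of 4 libraries) by Dixon's ratio at its critical value for 4 values, which chance passes in about 1 of 20 groups.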

How the results depend on the processing

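The number of genes called in Model against Control was 62 (9 higher, 53 lower), and 23 to 100 with 1 library left out; DESeq2 called 444 (198 higher, 246 lower) and limma-voom with quality weights 1079 (620 higher, 459 lower). Of the 10 genes, 1 was called, and 0 to 3 with 1 library left out. DESeq2 called 3 (Ctsd at an adjusted p of 0.00911, Ctss at 0.00413 and Man2b2 at 0.000213) and limma-voom 8 (all but Ctsc and Lyz2), while 0 were called without a count filter, with the GC and length correction, and without Control 4, Model 2 and HBG 3. Without Model 1 and Model 4, chosen after seeing the data, 13 genes and 0 of the 10 were called (Man2b2 adjusted p 0.214). In HBG against Control 27 genes were called, 16 to 53 with 1 library left out, 205 by DESeq2 (49 higher, 156 lower) and 101 by limma-voom (9 higher, 92 lower); of the 10 genes DESeq2 called 1. In HBG against Model 0 genes were called under the settings run except DESeq2, which called 4. With the replicate number as a block, 25 genes were called in Model against Control and 17 in HBG against Control, and 0 of the 10 genes (Man2b2 adjusted p 0.0802); only 3 of 12 libraries correlated best with their own number.

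All 10 genes kept their direction in the 3 comparisons under the settings run, except Lyz2, at -0.018 in HBG against Control without Control 4, Model 2 and HBG 3, and at -0.34 to 0.041 in HBG against Model with 1 library left out. In Model against Control, limma-voom gave log2 fold changes of -0.17 for Gzmk, -1.79 for Cma1 and -1.20 for Gzmb, the block -0.14 for Cma1 and -0.065 for Gzmb, and the fit without Control 4, Model 2 and HBG 3 -0.38, -1.34 and -0.68 for Gzmk, Cma1 and Gzmb. With 1 library left out the ranges were -0.051 to 2.35 for Ctse, -0.30 to 1.19 for Gzmk, -1.33 to 1.01 for Cma1 and -0.69 to 0.79 for Gzmb. The causes were not tested. Of the list genes named above, DESeq2 also called Ctsa, Pld3, Ids, Psap, Atp6v0a1 and Atp6v0d2 in Model against Control. By limma-voom these were called, as were Man2b1, Gusb, Grn, Gnptab and Laptm5. The named genes had been picked for a small p in that same comparison. Other genes of the lists were not looked up under these settings.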
